A study of Bos taurus with 14 samples.

Results

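The miR-200 family of the cow consists of bta-miR-200c, bta-miR-141, bta-miR-200b, bta-miR-200a and bta-miR-429, named below without the species prefix, and its members were chosen by these names from the miRNA counted in milk small extracellular vesicles (sEVs) of dairy cows. All 5 were listed, each with 1 precursor, among 350 miRNA/precursor pairs that carry 268 mature miRNA names. No other pair had the same counts as a member in every cow (0 pairs for each of the 5). Milk came from 14 Holstein cows with subclinical mastitis, an udder inflammation without visible signs. The 7 control cows received a total mixed ration alone, and the 7 inulin cows received the same ration with 300 g/d of inulin, a plant fibre used as a prebiotic, given orally at the morning feeding. Both diets ran for 5 wk after 1 wk of adaptation, and milk was taken on the last day. The question of the comparison is whether inulin changes the sEVs-miRNA of such cows. All cows were diseased, so neither group stands for a healthy udder, and vesicles of milk can come from the epithelium as well as from the somatic cells of the milk.

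The miR-200 family is known for holding cells in the epithelial state. Its members repress ZEB1 and ZEB2, transcription factors that shut down E-cadherin, and these factors in turn repress the genes of the family. The seed, the short stretch near the 5′ end with which a miRNA finds its targets, divides the family into 2 groups that differ in a single base, miR-200b, miR-200c and miR-429 on one side and miR-200a and miR-141 on the other. The genes form 2 clusters that cut across these groups. RefSeq annotates the genes of miR-141 and miR-200c on the assembly ARS-UCD2.0 next to each other between PHB2 and PTPN6, inside a long non-coding RNA gene. Those of miR-429, miR-200a and miR-200b lie next to each other between TTLL10 and C16H1orf159, where no other miRNA gene is annotated.

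Libraries held between 4165 and 415020 miRNA counts, and the median library had 72277 counts among control cows and 112974 among inulin cows. The let-7 pairs took between 41.1% and 91.2% of the counts of a cow, so that the levels given as CPM (counts per 1000000 counts of the cow) rest on what let-7 leaves. These totals sum the pairs, so a miRNA with several precursors enters once for each. For let-7a-5p the control means were 149354, 149351 and 149454 CPM on let-7a-1, let-7a-2 and let-7a-3. Levels and shares are thus fractions of this sum, not of reads. With 1 precursor per mature miRNA, the control mean log2 CPM of miR-200c was 12.87 in place of 12.26. One library stood apart from the rest. Control cow 5 had the highest total, 415020 of the 796314 counts of the control group over all pairs. It held 75.4% of the 7449 family counts of that group. Values without this cow are therefore given beside those over all cows. The cow was singled out after its family counts were seen. The p values and calls without it thus describe how far the results depend on it and are not tests of the diet. The shallowest library, that of control cow 2, had 14 family counts, and in it a count of 0 allows a level of up to 720 CPM (3 counts of the total, counting error only).

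Milk sEVs carried mainly miR-200c. This member had 11333 of the 13341 family counts (84.9%), followed by miR-141 with 1344, miR-200b with 332, miR-200a with 268 and miR-429 with 64. The miR-200c share was 91.3% of the 7721 counts outside control cow 5. In the order of the mean level over the 14 cows, with 1 precursor per mature miRNA, miR-200c had rank 12 of 268, just after miR-26a (6215 ± 3973 CPM, SD, n = 14) and just before miR-151-5p (4741 ± 1104 CPM, SD, n = 14). Its rank in a single cow lay between 7 and 19. The neighbours did not differ from it beyond their spread, since miR-26a was higher in 11 and miR-151-5p lower in 9 of the 14 cows. The rank of miR-141 was 34, that of miR-200b 66, that of miR-200a 67 and that of miR-429 107.

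Within the family the first step of this order held in every cow, and the second in all cows but 2 once counting error is considered. The level of miR-200c exceeded that of miR-141 in 14 of 14 cows, by 4875 ± 1925 CPM (SD, n = 14), or 4620 ± 1740 without control cow 5 (SD, n = 13). The level of miR-141 exceeded that of miR-200b in 14 of 14 cows, by 368 ± 371 CPM (SD, n = 14), or 280 ± 173 without that cow (SD, n = 13). In control cows 2 and 7 it did so on 1 and 2 counts (240 and 86.4 CPM) against 0 of miR-200b. These 0 counts allow up to 720 and 130 CPM, so the order is not settled in these cows. From miR-200b down, the order was not separated from the spread between cows. miR-200b was higher than miR-200a in 4 cows, lower in 4 and equal in 6, with a difference of 5.84 ± 72.9 CPM (SD, n = 14) that became -7.80 ± 54.2 without control cow 5 (SD, n = 13). Of the 6 equal cows, inulin cow 5 had 13 counts of each, and the others had 0 counts of both. miR-200a was higher than miR-429 in 6 cows, lower in 2 and equal in 6, with a difference of 51.2 ± 101.4 CPM (SD, n = 14), or 28.1 ± 55.0 without control cow 5 (SD, n = 13). Here all 6 equal cows had 0 counts of both.

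**Figure D1:**
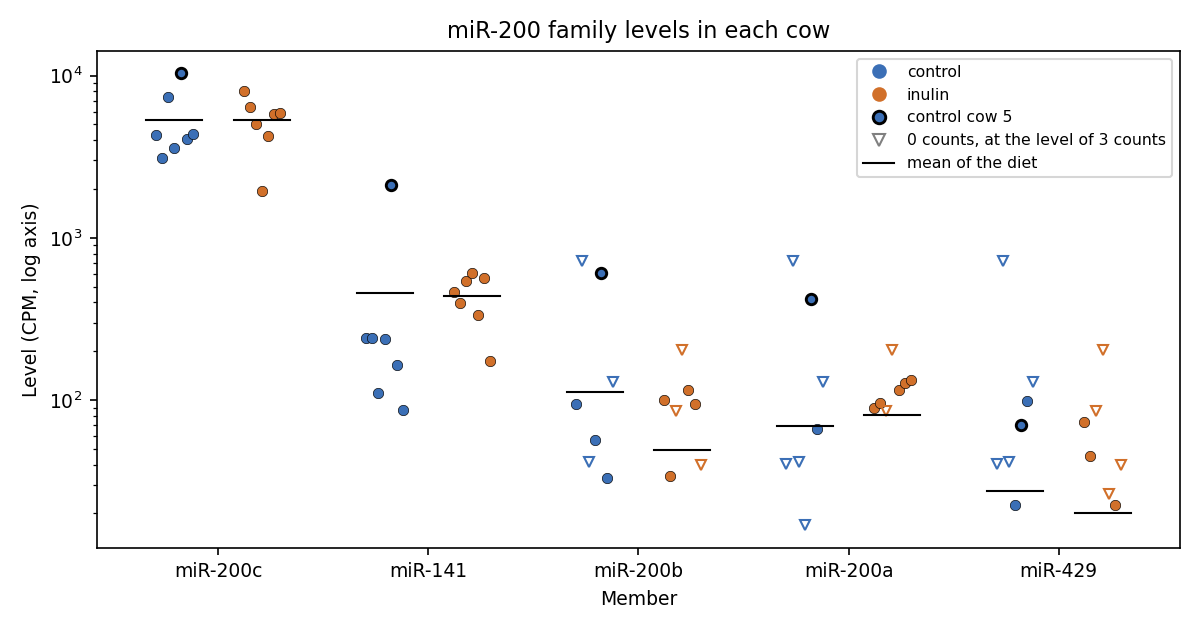
Level of each member in each cow, in CPM on a log axis, with control cows in blue and inulin cows in orange. Open triangles are cows with 0 counts, drawn at the level that 3 counts would give, and lines are the means of a diet. miR-200c lies between 1957 and 10320 CPM in all cows, and control cow 5 (thick outline) is the highest cow for every member but miR-429.

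Abundant miR-200c, which shares its gene cluster with miR-141, was present in all 14 cows. Control cows had 3121 CPM at the lowest, 4296 at the median and 10320 at the highest, and inulin cows had 1957, 5814 and 8061 CPM. The groups overlapped almost completely, with the highest cow in the control group (control cow 5) and the lowest in the inulin group (inulin cow 4). The means were 5308 ± 2605 CPM (SD, n = 7) and 5341 ± 1907 CPM (SD, n = 7). edgeR gave inulin over control a log2 fold change of 0.044 with a standard error of 0.44 and an adjusted p of 0.987, and the difference of 0.025 in mean log2 CPM did not exceed what varies between cows (two-sided exact permutation test, p = 0.943). The fold change was 0.33 (adjusted p = 0.949 from edgeR) without control cow 5 and 0.62 with the total other than let-7. Its sign changed with the leaving out of single cows and with DESeq2, so no direction can be given for miR-200c.

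Its cluster partner miR-141 was also found in all 14 cows. Control cows had 86.4 CPM at the lowest, 237 at the median and 2125 at the highest, and inulin cows had 173, 463 and 607 CPM. Control cow 5 alone was above all inulin cows, while the other control cows lay at 242 CPM or below, and 3 of them were below every inulin cow. The means were nearly equal, 458 ± 738 CPM (SD, n = 7) in the control group and 440 ± 152 CPM (SD, n = 7) in the inulin group, and control cow 5 held 882 of the 958 control counts. For this member edgeR gave a log2 fold change of -0.19 with a standard error of 0.76 and an adjusted p of 0.985, whereas the difference in mean log2 CPM was 0.71 in the opposite direction (exact permutation test, p = 0.259).

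With control cow 5 set aside, the control mean of miR-141 was 180 ± 70.1 CPM (SD, n = 6), and 6 of the 7 inulin cows were above the highest control cow. Inulin cow 7, at 173 CPM, was the exception. edgeR then gave a log2 fold change of 1.30 with a standard error of 0.62, an unadjusted p of 0.0486 and an adjusted p = 0.501. In mean log2 CPM the difference was 1.19, with an exact permutation p of 0.00466 that became 0.197 after adjustment over the 188 pairs. Both values failed the correction for all pairs tested. In the 11 cows that remained when the cows below 20000 counts were also left out, the log2 fold change was 0.92 (adjusted p = 0.653 from edgeR).

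The members of the other cluster were sparse. miR-200b had counts in 4 of 7 control and 4 of 7 inulin cows. Control cows reached from 0 to 605 CPM around a median of 33.1, and inulin cows from 0 to 115 CPM around 34.1. Control cow 5 held 251 of the 269 control counts, and apart from it the highest control cow had 94.3 CPM. In edgeR its log2 fold change was -1.19 with a standard error of 1.15 and an adjusted p of 0.918, the exact permutation test of log2 CPM gave p = 0.872, and the fold change turned to 0.62 (adjusted p = 0.949 from edgeR) without control cow 5.

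miR-200a, which has the seed of miR-141, was found in 2 control and 5 inulin cows. Control cow 5 had 175 counts (422 CPM), control cow 6 had 2 counts (66.2 CPM), and the other 5 control cows had 0. In control cows 1, 3 and 4 of these the limit that a count of 0 allows, 40.4, 41.5 and 16.9 CPM, was below the level of every inulin cow with counts. Inulin cows 1, 2, 5, 6 and 7 had between 89.5 and 133 CPM, and inulin cows 3 and 4 had 0 counts, which allow up to 85.8 and 202 CPM. These inulin levels lay close together and below that of control cow 5. The depth of control cows 2 and 7, where 0 counts allow up to 720 and 130 CPM, was too low to place them above or below. The means were 69.7 ± 157 CPM (SD, n = 7) in the control group and 80.4 ± 57.1 CPM (SD, n = 7) in the inulin group. In edgeR its log2 fold change was 0.039 with a standard error of 1.21 and an adjusted p of 0.989, and the exact permutation test of log2 CPM gave p = 0.225. Summed over all cows, miR-200a had 177 of 796314 counts in the control group and 91 of 869093 in the inulin group. Apart from control cow 5, which held 175 of the 177, the control group kept 2 of 381294 counts. The order of the summed shares thus turned with the leaving out of this cow, which was singled out after its family counts were seen. The sum gives deep libraries more weight, and the mean level over the 7 inulin cows was 7.29 times that over the 6 control cows other than control cow 5. The p of edgeR was then 0.0255, or 0.457 after adjustment, and that of the exact permutation test 0.0414, or 0.648 after adjustment.

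The least abundant member, miR-429, which has the seed of miR-200b and miR-200c, was counted 36 times in 3 control cows and 28 times in 3 inulin cows. Its highest level, 99.3 CPM in control cow 6, rested on 3 counts. The mean was 27.4 ± 40.8 CPM (SD, n = 7) in the control group and 20.3 ± 29.3 CPM (SD, n = 7) in the inulin group. edgeR gave a log2 fold change of -0.26 with a standard error of 1.22 and an adjusted p of 0.985, and the exact permutation test of log2 CPM gave p = 0.918. Without control cow 5 the fold change was 0.21 (adjusted p = 0.984 from edgeR). A difference between the diets was not detectable at this depth.

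By the rule of the study, an unadjusted p under 0.05 with an absolute log2 fold change above 1, edgeR called 0 of the 5 members, against 19 of all 210 pairs tested (9.05%), 6 higher (2.86%) and 13 lower with inulin (6.19%). DESeq2 also called 0 of the 5, against 9 of 210 pairs (4.29%), 3 higher (1.43%) and 6 lower (2.86%). No pair reached an adjusted p under 0.05 (0 pairs in edgeR with 19 at an unadjusted p under 0.05, and 0 in DESeq2 with 10). The median log2 fold change was -0.19 over the members and -0.40 over all pairs tested. Scaling to the counts other than let-7 moved the latter to 0.088. When control cow 5 was left out, miR-141 and miR-200a were called, both higher with inulin, 2 of the 5 members against 17 of 188 pairs (9.04%), 9 higher (4.79%) and 8 lower (4.26%). This cow was the highest of all cows for both, so leaving it out lowers their control levels by choice. With the cows below 20000 counts left out as well, miR-200a alone was called, 1 of the 5 members against 16 of 188 pairs (8.51%), 5 higher (2.66%) and 11 lower (5.85%). The exact permutation test gave 7 of 210 pairs (3.33%) an unadjusted p under 0.05 over all cows and 13 of 188 (6.91%) when control cow 5 alone was left out.

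**Figure D2:**
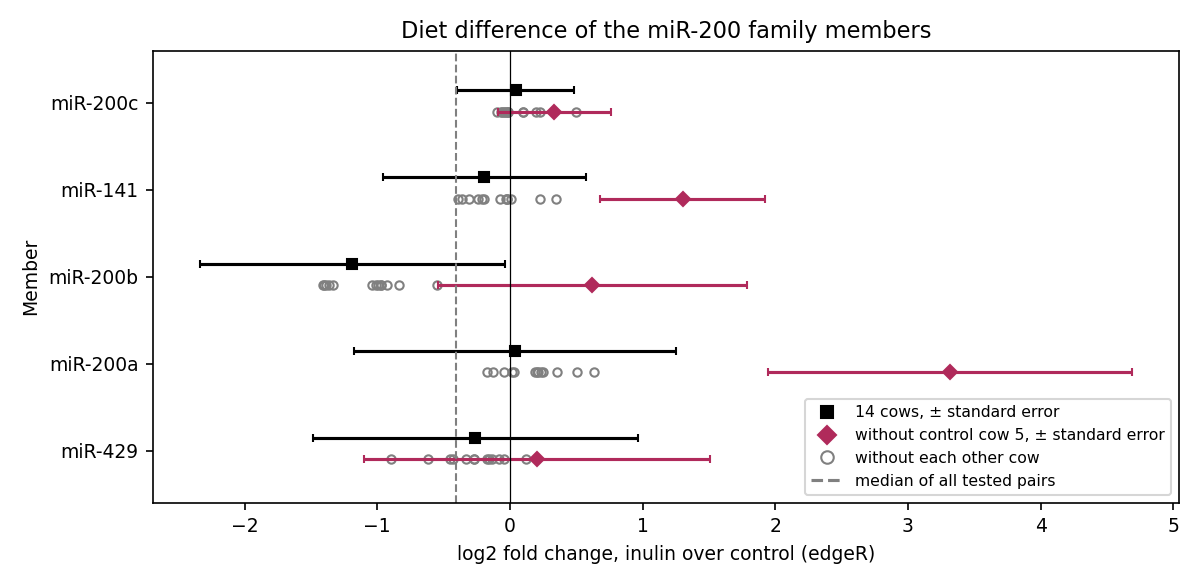
Log2 fold change of inulin over control for each member from edgeR. Squares are all 14 cows and diamonds the fit without control cow 5, both with standard errors, open circles leave out each other cow in turn, and the dashed line is the median of all tested pairs at -0.40. Without control cow 5, miR-141 moved from -0.19 to 1.30 and miR-200a from 0.039 to 3.32.

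Together the 5 members made up 0.598% ± 0.359 (SD, n = 7) of all counts in control cows and 0.593% ± 0.194 (SD, n = 7) in inulin cows. In the control group the share ranged from 0.336% to 1.35%, and the highest value was that of control cow 5. In the inulin group it ranged from 0.256% in inulin cow 4 to 0.879% in inulin cow 1. Without control cow 5 the control mean was 0.471% ± 0.145 (SD, n = 6), and the ranges of the diets still overlapped. In bulk vesicle samples such as these, fewer vesicles of epithelial origin and less miR-200 in each vesicle cannot be told apart.

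The seed groups were unequal in every cow. miR-200b, miR-200c and miR-429 together had 93.4% ± 5.79 of the family counts in control cows and 89.8% ± 6.26 in inulin cows (SD, n = 7 each). The seed of miR-200a and miR-141 accordingly had 6.56% ± 5.79 in control cows and 10.2% ± 6.26 in inulin cows (SD, n = 7 each). The difference of -3.67 percentage points in the share of miR-200b, miR-200c and miR-429 was smaller than the SD between cows (6.03). It was -5.71 (SD 4.88) without control cow 5, -3.99 (SD 2.15) when the cows below 20000 counts were left out as well, and -1.42 (SD 4.52) without inulin cow 4 alone, so that whether it exceeded the spread depended on these cows. The share of miR-200a and miR-141 ranged from 1.47% to 18.8% over the control cows, with a median of 5.23%, and from 4.96% to 23.7% over the inulin cows, with a median of 9.43%. Control cow 5 (18.8%, 95% Wilson interval 17.8 to 19.9, 5620 family counts) stood clear of the other control cows, of which the next, control cow 2, had 7.14% of only 14 counts. Inulin cow 4 (23.7%) had only 38 family counts and an interval from 12.99% to 39.2%. With control cow 5 left out, the control mean was 4.52% ± 2.29 (SD, n = 6), and control cows 3 and 7 were below every inulin cow. For control cow 7 this rested on 2 of 103 family counts, with an interval from 0.534% to 6.81%.

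Summing the counts before the share was taken turned this order round. The seed of miR-200a and miR-141 then took 15.2% of the 7449 control counts and 8.10% of the 5892 inulin counts. Of the 1829 control counts outside control cow 5 it took 4.26%.

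The gene clusters were still more unequal. miR-200c and miR-141 together had 97.6% ± 3.01 of the family counts in control cows and 97.7% ± 1.80 in inulin cows (SD, n = 7 each), and without control cow 5 the control mean was 98.6% ± 1.80 (SD, n = 6). The cluster of miR-200a, miR-200b and miR-429 had between 0% and 8.10% in the control group and between 0% and 4.81% in the inulin group. The 8.10% of control cow 5 (95% Wilson interval 7.41 to 8.84) again exceeded the other cows. In control cow 3, the cluster had 0 of 543 family counts, which allows a share of up to 0.552%, and in inulin cow 3 it had 0 of 196, which allows up to 1.53%. Inulin cows 5 and 6, with 4.81% and 3.70%, were above these limits, so that the share of the cluster differed from cow to cow by more than counting error.

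miR-141 and miR-200c come from the same cluster, but their proportion was not constant. miR-141 had 6.16% ± 5.25 of the counts of the pair in control cows and 9.10% ± 6.82 in inulin cows (SD, n = 7 each), and without control cow 5 the control mean was 4.33% ± 2.30 (SD, n = 6). It ranged from 1.47% in control cow 3 (interval 0.748 to 2.88) to 17.1% in control cow 5 (interval 16.1 to 18.1) and 23.7% in inulin cow 4. Apart from inulin cows 3 and 4, which had few counts, inulin cow 7 was lowest with 2.86% (interval 1.68 to 4.84) and inulin cow 6 highest with 8.81% (interval 7.55 to 10.3).

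**Figure D3:**
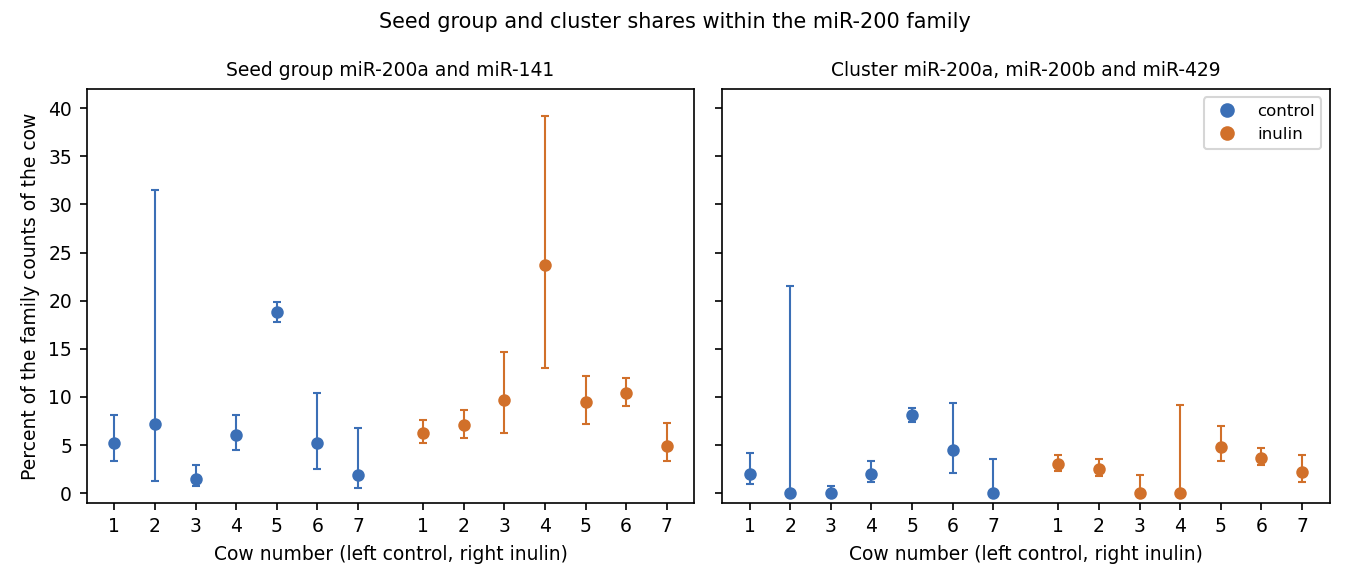
Share of the family counts of each cow, in percent, in the seed group of miR-200a and miR-141 (left) and in the cluster of miR-200a, miR-200b and miR-429 (right). Points are cows, control in blue and inulin in orange, and bars are 95% Wilson intervals, which cover counting error only. Control cow 5 has 18.8% and 8.10%, and inulin cow 4 and control cow 2 have wide intervals from 38 and 14 family counts.

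Control cow 5, the deepest library, also stood apart in levels scaled to its total. Its miR-141 level was 10.6 times the median of the other 6 control cows, and of 64 miRNA found in at least 10 cows only 3 had a higher ratio. For miR-200c the ratio was 2.47, close to the median ratio of the 64 miRNA (2.06). For miR-200b it was 36.6, but over a median of 16.5 CPM from 6 cows of which only 3 had counts. Against the highest of the other control cows, the level of control cow 5 was 6.42 times for miR-200b, 8.77 times for miR-141 and 1.39 times for miR-200c. Leukocyte miRNA fixed as a list (6 of 7 matched) also had their highest share of all 14 cows in control cow 5, 0.0860% of the counts, compared with a range of 0% to 0.0860% in the control group and 0.00454% to 0.0486% in the inulin group. In the same cow the other epithelial miRNA had 0.208%, also the highest share in the control group (median 0.0886%). The 4 cows that exceeded it were inulin cows. Over all cows, miR-375 had 3251 of the 3356 counts of this list, so its share mostly describes that miRNA. The part of these lists and of depth in the family levels was not tested.

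Whether members rise and fall together was asked over the 14 cows in log2 CPM, with 10 relations computed. None passed an adjusted permutation p of 0.05 (0 of 10, with 5 under 0.05 before adjustment). The highest r values were found within the sparse cluster and also across clusters and seeds. For miR-200b and miR-200a, Pearson's r was 0.66 (permutation p = 0.00949, adjusted p = 0.0568) and Spearman's rho 0.58 (permutation p = 0.0331, adjusted p = 0.153), and r was 0.45 without the 2 cows farthest from the median of miR-200b and 0.49 without control cow 5. For miR-141 and miR-200b, which share neither cluster nor seed, r was 0.63 (permutation p = 0.0150, adjusted p = 0.0568) and 0.34 without control cow 5. For miR-200c and miR-200a, which also share neither, it was 0.62 (permutation p = 0.0170, adjusted p = 0.0568) and 0.47 without that cow. miR-200b and miR-429 had an r of 0.60 (0.49 without control cow 5), and miR-200a and miR-429 also 0.60 (0.51). The values within the sparse cluster share the cows in which all 3 had 0 counts. Relations across clusters also include cows with 0 counts of a sparse member, which sit at the floor of log2 CPM. miR-141 and miR-200b were both counted in 8 of the 14 cows, and miR-200c and miR-200a in 7. The cluster partners miR-200c and miR-141, both counted in every cow, had an r of 0.27 (permutation p = 0.353, adjusted p = 0.353; rho = 0.17, permutation p = 0.565, adjusted p = 0.565), and -0.13 without control cow 5. Within the control group their r was 0.58 (exact permutation p = 0.172) and within the inulin group -0.32 (exact permutation p = 0.421). Over all 2016 relations between 64 miRNA found in at least 10 cows, the median r was 0.085, and 33.7% were as high as that of miR-200c and miR-141. The 4 relations between members with the same seed had an r of 0.45 (miR-200c and miR-429), 0.48 (miR-200c and miR-200b), 0.52 (miR-141 and miR-200a) and 0.60 (miR-200b and miR-429). These were, without control cow 5, 0.32, 0.24, 0.25 and 0.49.

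These relations depended on the scaling. With TMM 8 of the 10 relations passed the adjusted threshold. With the counts other than let-7 as the total 7 passed, and r of miR-200c and miR-141 was 0.67. Leaving out single cows gave between 0 and 8, with 8 without control cow 6. The level of miR-200c, counted in every cow, tended to be higher in deeper libraries, but short of the adjusted threshold. Its r with the log10 total count was 0.71 (permutation p = 0.00506, adjusted p = 0.0523 over 67 miRNA; rho = 0.64, adjusted p = 0.128 by permutation), 0.60 without control cows 2 and 5, the shallowest and the deepest, 0.68 within the control group (exact permutation p = 0.103) and 0.81 within the inulin group (exact permutation p = 0.0246). For miR-141, also counted in every cow, r was 0.43 (permutation p = 0.123, adjusted p = 0.242), and the median over the 67 miRNA was 0.32. No such value is given for miR-200b, miR-200a and miR-429, since a cow with 0 counts sits at the floor of log2 CPM and shallow cows more often have 0 counts. The part of depth in the relations between members was not tested.

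The miRNA whose levels followed those of the family most closely were sought among 63 others found in at least 10 cows, by Spearman's rho of CPM over the 14 cows, as a description. All these levels share the total of the cow. For miR-200c they were miR-99a-5p (rho = 0.76), miR-151-3p (0.68), let-7f (0.66), miR-29a (0.64) and let-7g (0.61), whereas miR-141 had rank 33 with 0.17 and the median was 0.17. Without control cow 5 the 5 values lay between 0.52 and 0.70. With the total other than let-7 the order changed, to ranks 15, 24, 5, 17 and 1, and rho of miR-200c and miR-141 was 0.62 with rank 30. For miR-141 the closest were miR-375 (0.83), miR-660 (0.75) and miR-181b (0.64), and miR-200c had rank 24. The rho of miR-141 and miR-375, a miRNA known from secretory and epithelial cells, was 0.85 without control cow 5 and 0.89 with the total other than let-7, where it had rank 2. miR-375 ranged from 240 to 1985 CPM in the control group and from 1230 to 3711 CPM in the inulin group (log2 fold change 1.10, standard error 0.54, adjusted p = 0.528 from edgeR). Its fold change was 1.43 without control cow 5 (unadjusted p = 0.0121, adjusted p = 0.335 from edgeR).

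**Figure D4:**
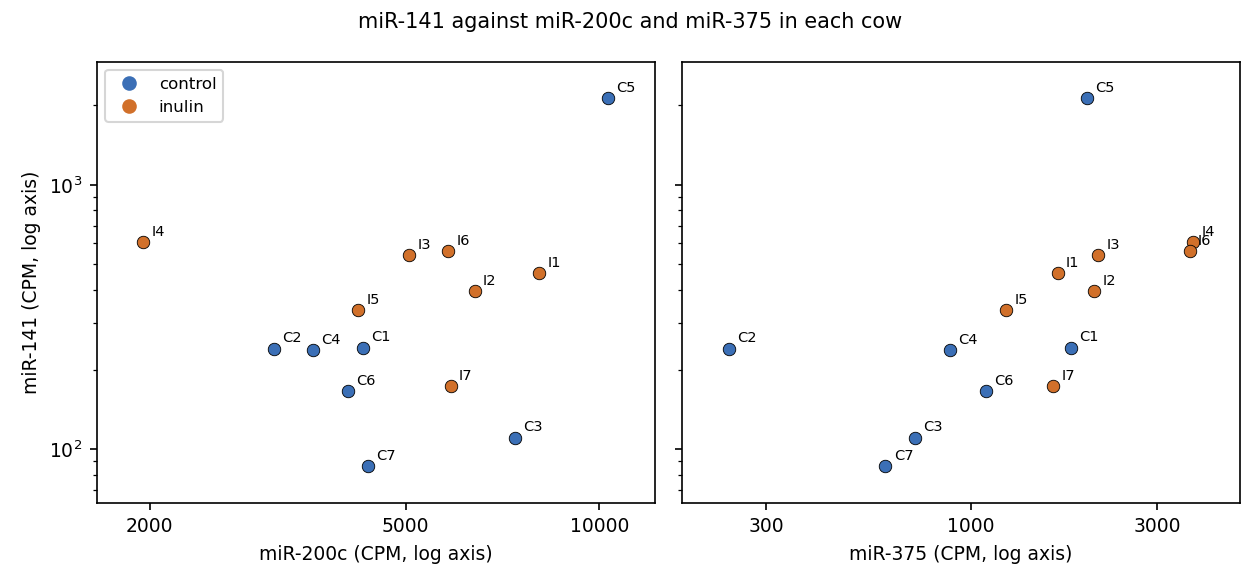
Level of miR-141 against miR-200c (left) and miR-375 (right) in each cow, in CPM on log axes, with C and I marking control and inulin cows by number. Spearman's rho over the 14 cows is 0.17 on the left and 0.83 on the right, and control cow 5 has the highest miR-141 level in both.

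Other miRNA of known cell types were read beside the family. Of 9 other epithelial miRNA, 6 were matched and 3 had enough counts for the test, miR-375, miR-182 and miR-183, of which 0 were called, and their median log2 fold change was 0.13, beside -0.40 over all pairs. miR-182 had 72.8 ± 60.8 CPM in the control group and 21.1 ± 28.7 CPM in the inulin group (SD, n = 7 each; adjusted p = 0.914 from edgeR). Of the leukocyte miRNA, 5 were tested with a median of -1.20, and 1 was called, lower with inulin, as were 13 of all 210 pairs (6.19%). This was miR-142-5p, a miRNA of blood cells, with 32 counts in 2 cows, both of the control group, of which control cow 5 held 22. It was still called without that cow (unadjusted p = 0.0125, adjusted p = 0.335 from edgeR), on counts of 1 cow. miR-223, known from neutrophils, had 182 ± 175 CPM in the control group and 60.5 ± 104.5 CPM in the inulin group (SD, n = 7 each; adjusted p = 0.914 from edgeR). The list did not go one way, since miR-155, known from activated immune cells and found in 13 cows, had a log2 fold change of 0.17. Its levels were 195 ± 115 CPM in the control group and 241 ± 143 CPM in the inulin group (SD, n = 7 each; adjusted p = 0.985 from edgeR). Of the mesenchymal, endothelial and muscle miRNA, 7 of 9 were matched, 3 were tested, 0 were called, and the median was -1.13. Without control cow 5, 1 of 3 epithelial (miR-375, higher), 1 of 3 leukocyte (miR-142-5p, lower) and 1 of 2 mesenchymal, endothelial and muscle miRNA (miR-143, higher) were called, with list medians of 0.22, -1.19 and 0.68 beside -0.095 over all 188 pairs. Each list held both signs in this fit. The log2 fold change was 3.21 for miR-143 and -1.86 for miR-1, 1.43 for miR-375 and -1.24 for miR-182, and -1.19 for miR-223 and 0.18 for miR-155. The summed share of the mesenchymal, endothelial and muscle miRNA ranged from 0% to 0.392% in the control group and from 0% to 0.169% in the inulin group. Of its 421 counts, miR-1 had 332. Of the erythroid miRNA 1 of 3 was matched, miR-486 with 5 counts.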

How the data were processed

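Milk sEVs small RNA of 14 cows was sequenced. The authors trimmed adapters, kept reads by length and quality, annotated them with Rfam and miRBase and counted miRNA with miRDeep2, and the labels name the build ARS-UCD1.2. The deposited counts are reads per miRNA/precursor pair, and the deposited rpm columns were made by the authors from these counts and the summed count of each library, within 0.005 of the recomputed values. The deposited length of a mature miRNA, another unit, and the summed count were read but not tested. Settings that decide how reads of near-identical members are split, such as the mismatches allowed, are not given in the sources used here. The labels gave the diet of each cow, and every count column belonged to a cow.

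The 210 pairs whose counts summed to 10 or more entered the quasi-likelihood fit of edgeR 4.0.16 (R 4.3.3, TMM), with Benjamini-Hochberg adjustment over all of them. The study used DESeq2 (here 1.42.0), an alternative beside limma-voom (limma 3.58.1). Log2 CPM had a prior count of 2 scaled to the library, and two-sided exact permutation tests, which used every split of the cows into 7 and 7, could not give a p below 0.000583. Correlations used 100000 permutations. Sums over the members have no p. Other steps ran in Python 3.11.15 (SciPy 1.17.1, NumPy 2.4.6, pandas 2.3.3) with matplotlib 3.10.9 for plots, and the code was tested on simulated data. Intervals and limits (3 counts) cover counting error only.

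The members and lists were chosen with earlier results of these data known. Named were the members, the cell type lists, the 5 miRNA closest to miR-200c and the 3 closest to miR-141, and the neighbours in level.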

Additional observations from a re-analysis of the deposited data

Results flagged for a closer look

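Each of 20 sets of 7 values (a member, share or total within a diet) was searched for a cow far from the rest. Dixon's ratio at the 95% level, which by chance would pick about 1 set, picked 9 values, of which 7 belong to control cow 5. These were its level of miR-141 (2125 CPM, other control cows 86.4 to 242), of miR-200b (605 CPM, others up to 94.3) and of miR-200a (422 CPM, others up to 66.2), the family share of its counts (1.35%, others up to 0.751%), the share of the miR-200a and miR-141 seed in the family (18.8%, others up to 7.14%), the share of miR-141 in the counts of miR-200c and miR-141 (17.1%, others up to 7.14%) and its total count (415020, others up to 177212). These values share one library and overlap in their counts, so they are not separate picks.

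The remaining values belong to inulin cow 4, with 23.7% of its family counts in the miR-200a and miR-141 seed (other inulin cows up to 10.4%) and 23.7% of its miR-200c and miR-141 counts in miR-141 (others up to 9.69%). They rest on the same 9 of 38 counts, because miR-200a, miR-200b and miR-429 had 0 counts in this cow.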

How the results depend on the processing

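The number of pairs called between the diets, 19, was 9 with DESeq2, 75 without a filter, 3 with filterByExpr, which left 62 pairs and kept miR-200c and miR-141 alone of the family, and 7 with the cow number as a replicate block. The number of members called, 0, rose only without control cow 5, to 2, and to 1 when the cows below 20000 counts were left out as well. Both this cow and the limit were singled out after seeing the data. Leaving out each cow gave between 0 and 2. The cows share only a number across diets, since same-numbered cows deviated together (r over 0.1) in 2 of 7 pairs and 0 control cows were closest to their own number, and the replicate block gave 1 pair an adjusted p under 0.05, no member among those called.

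The log2 fold change of miR-200c was -0.091 with DESeq2, -0.022 with limma-voom, -0.087 with the size factors of DESeq2 and 0.62 with the total other than let-7, and from -0.096 to 0.49 over the fits that leave out 1 cow. That of miR-141 was 0.16 with limma-voom, 0.26 with the total other than let-7, 0.094 without a filter, 0.096 with filterByExpr, 0.096 with 1 precursor per miRNA, 0.91 with the replicate block, 0.92 without control cow 5 and the shallow cows, and from -0.39 to 1.30 over the same fits. In the last pair of settings miR-200b gave 0.28 and from -1.41 to 0.62, miR-200a 3.11 and from -0.17 to 3.32, and miR-429, which was 0.025 with the total other than let-7, from -0.90 to 0.21. In log2 CPM, miR-200b gave 0.040 with the total other than let-7 and 0.39 without control cow 5 and the shallow cows, and miR-429 gave 0.096 and 0.12. With each cow left out the range was -0.091 to 0.25 for miR-200c (0.66 with the total other than let-7), -0.50 to 0.35 for miR-200b and -0.39 to 0.20 for miR-429, while miR-141 (0.49 to 1.19) and miR-200a (0.88 to 1.56) stayed above 0.

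The family share differed by -0.00445 percentage points (inulin minus control), by 1.37 of the counts other than let-7, and by -0.0521 to 0.122 with each cow left out. With counts summed over cows, the share of the miR-200b, miR-200c and miR-429 seed differed by 7.14 in place of -3.67 percentage points and that of the miR-200c and miR-141 cluster by 3.38 in place of 0.0645. With each cow left out they lay between -5.71 and -1.42 and between -0.889 and 0.480. Of the relations between members, 0 passed, against 8 with TMM, 7 with the total other than let-7 and 0 to 8 with each cow left out, and r of miR-200c and miR-141 ranged from -0.13 to 0.54. The cause of these changes was not tested. Depth limits miR-200b, miR-200a and miR-429 most, with counts in 8, 7 and 6 of 14 cows.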
